A study of Mus musculus with 18 samples.

Results

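The enzymes that supply cytosolic NADPH and carry the pentose phosphate pathway were followed through liver, epididymal white adipose tissue (eWAT) and quadriceps muscle of mice on a control or a high-salt diet. They are 8 genes of the 21899 listed: *G6pdx*, *Pgls*, *Pgd*, *Tkt*, *Taldo1*, *Rpia*, *Me1* and *Idh1*. The genes were listed by name, but the list was chosen by someone who knew earlier HSD against CON differences in these same libraries. The values of the diet comparisons are therefore a description, and nothing is read from the p-values printed with them. The levels between tissues within one diet are comparisons that this choice did not use directly. They rest on the same libraries, however, so they are not independent of it.

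All animals were wild type male C57BL/6 mice, 18 weeks old. The HSD group ate chow with added NaCl and drank saline for 12 weeks, whereas the CON group had chow and tap water over the same 12 weeks. Each combination of tissue and diet holds 3 libraries, and the name of each library carries 1 mouse code. Some codes recur in several tissues. Total RNA was depleted of rRNA, sequenced from both ends with strand kept, and given as FPKM, the fragments of a gene per kilobase of its exons and scaled to the total of the library.

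NADPH is the reducing agent that cells spend on fatty acid and sterol synthesis and on keeping glutathione and thioredoxin reduced. In the oxidative branch of the pentose phosphate pathway, glucose-6-phosphate dehydrogenase (*G6pdx*) makes the first NADPH and 6-phosphogluconolactone. The lactonase (*Pgls*) opens that ring, and 6-phosphogluconate dehydrogenase (*Pgd*) makes the other NADPH together with ribulose 5-phosphate. In the non-oxidative branch, ribose 5-phosphate isomerase (*Rpia*) forms the ribose of nucleotides, while transketolase (*Tkt*) and transaldolase (*Taldo1*) return the sugars to glycolysis. Malic enzyme (*Me1*) and the cytosolic isocitrate dehydrogenase (*Idh1*) make NADPH outside the pathway, from malate and from isocitrate. Adipose tissue and liver are the tissues best known for using this NADPH in lipogenesis.

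In build mm10, *G6pdx* (ENSMUSG00000031400) lies on the minus strand at chrX:74409483-74429194, *Pgls* (ENSMUSG00000031807) on the plus strand at chr8:71592176-71601092 and *Pgd* (ENSMUSG00000028961) on the minus strand at chr4:149149991-149166771. *Tkt* (ENSMUSG00000021957) lies on the plus strand at chr14:30548359-30574720, *Taldo1* (ENSMUSG00000025503) on the plus strand at chr7:141392199-141402968 and *Rpia* (ENSMUSG00000053604) on the minus strand at chr6:70765720-70792232. *Me1* (ENSMUSG00000032418) is found on the minus strand at chr9:86581371-86695953 and *Idh1* (ENSMUSG00000025950) on the minus strand at chr1:65158616-65186500. All are protein coding. Exons of *Pgls* share 776 bases, 20.6% of its exonic length, with *Fam129c* on the same strand, so the split of fragments between these genes is uncertain. Exons of *G6pdx* share 418 bases, or 13.6%, with *Ikbkg* on the other strand.

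Of the 6 members whose FPKM was lower in every HSD than in every CON eWAT library, the upstream windows of *Pgd*, *Me1* and *Taldo1* are shown as examples. Each runs from 250 bases before the RefSeq start to the start itself or to the first base that GENCODE M21 places in an exon (GRCm38.p6, 5′ to 3′ on the strand of the gene). Capitals mark letters of a CCAAT box (CCAAT) or of a GC box (GGGCGG), on either strand. The last 3 capitals of *Me1* begin a further GC box that runs into the exon.
Pgd, chr4:149166772-149166955, minus strand: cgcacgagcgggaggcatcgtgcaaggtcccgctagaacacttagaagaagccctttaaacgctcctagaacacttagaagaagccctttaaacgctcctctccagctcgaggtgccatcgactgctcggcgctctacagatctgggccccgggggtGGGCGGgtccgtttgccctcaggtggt
Me1, chr9:86695954-86696164, minus strand: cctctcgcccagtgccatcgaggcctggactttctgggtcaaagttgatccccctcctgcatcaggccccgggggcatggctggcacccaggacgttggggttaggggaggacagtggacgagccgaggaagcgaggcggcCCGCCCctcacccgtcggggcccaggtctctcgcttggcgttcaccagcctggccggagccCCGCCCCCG
Taldo1, chr7:141391910-141392159, plus strand: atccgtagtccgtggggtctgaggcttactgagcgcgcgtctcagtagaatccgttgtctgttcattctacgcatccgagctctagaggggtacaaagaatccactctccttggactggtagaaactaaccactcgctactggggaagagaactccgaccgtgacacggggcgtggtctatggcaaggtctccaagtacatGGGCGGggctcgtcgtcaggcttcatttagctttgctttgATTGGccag

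A GC box stood within 250 bases before a RefSeq start of all 8 members. By window, it stood in 9 of their 11 listed windows, against 32.7% of 32851 windows of the same length. Those 9 windows held 54.4% (*Taldo1*) to 72.0% (*Me1*) G or C, against a median of 52.4% over the 32851 windows. The part of base composition in these matches was not tested. A CCAAT box stood in 4 of the 11 windows, against 33.9%. The core of the antioxidant response element (TGACNNNGC, in 10.2% of windows) had 1 match, before *G6pdx*. The form of the sterol response element that was searched (TCACNCCAC, 1.05%), the E-box (CACGTG, 6.02%) and the TATA box (TATAAA, 12.4%) had 0 matches each in the 11 windows. The match of *G6pdx* is shown in capitals with its flanks, because it is the only match of its kind among the members. It lies in an annotated exon of *G6pdx* itself, and the motif reads on the strand opposite to the gene.
G6pdx, chrX:74428919-74428947, minus strand: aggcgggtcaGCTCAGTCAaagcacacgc
No match of one motif overlapped a match of another. These matches describe letters in a window and were not tested against any binding data.

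Libraries held between 7628071 and 16637489 fragments. In eWAT, the members rested on at least 267 fragments in every library. In liver, *G6pdx* had 26 to 54 fragments and *Rpia* 31 to 95, so both were measured with large counting error there. Adipocyte markers summed to at least 10829 FPKM in each eWAT library and hepatocyte markers to at least 17879 FPKM in each liver library. Several libraries stood apart. HS3W (eWAT, HSD) held 28066 FPKM of 16 epididymal epithelium markers, with all 16 at 1 FPKM or more, against 1.33 to 14.7 FPKM in the other eWAT libraries. CON16L (liver, CON) held 5363 FPKM of 14 skeletal muscle markers against at most 9.02 FPKM in the other liver libraries. Blood cell markers, 5 genes, summed to 5667 FPKM in CON16W against 243 to 744 FPKM in the other eWAT libraries, to 5626 FPKM in CON16L against 237 to 842 FPKM in the other liver libraries, and to 965 FPKM in CON16M against 124 to 224 FPKM in the other muscle libraries. All 5 had log2 fold changes between HSD and CON below 0 in each tissue. Mitochondrially encoded genes took 60.8% of the fragments of CON14L and 44.4% of HS5L, against 15.4% to 37.8% in the other liver libraries.

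In CON mice, all 8 members were at their highest mean FPKM in eWAT. *G6pdx* had 70.6, 76.1 and 69.1 FPKM in the eWAT libraries, 1.19, 1.51 and 1.74 in liver and 1.86, 1.21 and 1.19 in muscle. The adipose level of this entry enzyme was thus far outside the range of the other tissues, which overlapped each other. *Pgd* had 59.9, 76.5 and 83.1 FPKM in eWAT, 2.89, 2.48 and 3.22 in liver and 2.95, 3.20 and 2.87 in muscle. *Tkt* had 98.2, 115 and 128 FPKM in eWAT, 5.35, 8.97 and 10.5 in liver and 1.87, 3.13 and 2.47 in muscle. For these 3 enzymes, every eWAT library stood far above every liver and muscle library, and of the 3, *Tkt* alone was also higher in every liver than in every muscle library. *Taldo1* had 154, 156 and 164 FPKM in eWAT against 19.4 to 59.6 in liver and 32.2 to 35.6 in muscle, and *Idh1* had 122, 123 and 127 FPKM in eWAT against 32.9 to 96.1 in liver and 7.90 to 8.75 in muscle. *Me1* had 127, 174 and 186 FPKM in eWAT, 78.1 to 89.1 in muscle and 13.7 to 30.8 in liver, so muscle stood between the other tissues for malic enzyme. *Rpia* had the same order at a far lower level, with 4.20 to 4.45 FPKM in eWAT, 2.88 to 3.79 in muscle and 1.19 to 2.32 in liver. *Pgls* had 16.8 to 17.4 FPKM in eWAT, 3.76 to 14.8 in liver and 4.58 to 5.10 in muscle, and with *Rpia* its group means varied least between tissues.

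**Figure D1:**
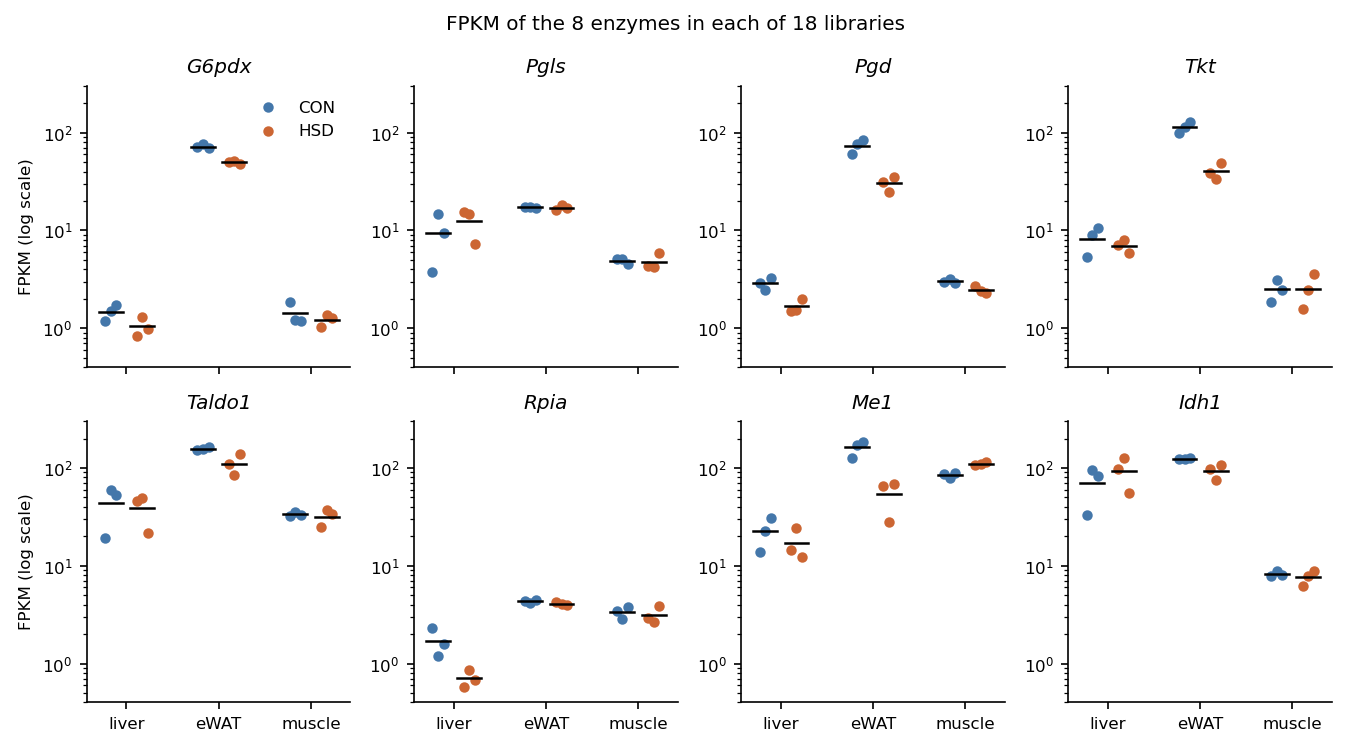
FPKM of each enzyme (vertical axis, log scale) in the 3 CON (blue) and 3 HSD (orange) libraries of liver, eWAT and muscle, where a point is 1 library and a bar is the group mean. *G6pdx*, *Pgd* and *Tkt* stand far higher in eWAT than in the other tissues, *Me1* is high in eWAT and muscle, and *Idh1* is high in eWAT and liver.

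The test was limma on log2(FPKM + 0.5), a scale that understates the change of low genes, with Benjamini-Hochberg adjustment over all genes, and a call needed an adjusted p under 0.05 and at least 2-fold. Tissues differ in most genes, so calls are read against the whole. Between eWAT and muscle of CON mice, 6 of 8 members were called, all higher in eWAT, where 54.9% of all genes were called and the median gene was 0.93 higher in eWAT on the log2 scale. *Pgls* was at 1.71 there, and lost its call under median-ratio scaling (0.73, adjusted p = 0.102) and quantile normalization (0.97), which left 5 members called. The log2 fold change was 5.25 ± 0.17 (SE, adjusted p = 8.73e-08) for *G6pdx*, 4.38 ± 0.17 (adjusted p = 1.37e-07) for *Pgd* and 5.27 ± 0.26 (adjusted p = 4.81e-07) for *Tkt*. *Rpia* and *Me1* were not called, with log2 fold changes of 0.33 and 0.92, and both turned negative under median-ratio scaling, to -0.56 and -0.10. Between liver and eWAT, 7 members were called lower in liver, where 69.4% of all genes were called and the median gene was at -1.36. The log2 fold changes furthest from 0 were those of *G6pdx* (-5.20 ± 0.17), *Pgd* (-4.45 ± 0.17), *Tkt* (-3.75 ± 0.26) and *Me1* (-2.88 ± 0.31), all below the median gene by more than 1. These 4 were the members still called under median-ratio scaling, at -3.71, -2.88, -2.13 and -1.24, and with mitochondrially encoded genes left out, at -4.32, -3.45, -2.69 and -1.79. The directions of *Pgls*, *Rpia* and *Idh1* between liver and eWAT turned with the scaling.

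Between liver and muscle of CON mice, 3 members were called, against 50.1% of all genes and a median gene at -0.52. *Idh1* was higher in liver by 2.88 ± 0.36 on the log2 scale (limma, adjusted p = 8.34e-05) and *Tkt* by 1.52 ± 0.26 (adjusted p = 0.000648). *Me1* was lower in liver, at -1.96 ± 0.31 (adjusted p = 0.000358). Without CON14L, the library with the largest mitochondrial share, *Pgls* and *Rpia* were called as well, for a count of 5. *G6pdx* and *Pgd* differed between these tissues by less than their standard errors, but not under median-ratio scaling, where *G6pdx* was 0.57 ± 0.19 (limma, adjusted p = 0.0228) and *Pgd* 0.50 ± 0.19 (adjusted p = 0.042) higher in liver, both under 2-fold.

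The same contrasts in the HSD libraries gave 7 members called between eWAT and muscle (58.7% of all genes), 6 between liver and eWAT (68.4%) and 5 between liver and muscle (45.1%). Median-ratio scaling left 5 called between eWAT and muscle, without *Pgls* and *Taldo1*. Between liver and eWAT it left 4, of which *G6pdx* (-3.59) and *Pgd* (-2.34) were lower in liver, while *Pgls* and *Idh1* turned from -0.51 and -0.07 to 1.07 and 1.56 and were called higher in liver. Quantile normalization gave 4 there and leaving out mitochondrially encoded genes 5, with *G6pdx*, *Pgd* and *Tkt* among them in both. *G6pdx* stood 4.87 ± 0.16 higher in eWAT than in muscle on the log2 scale (limma, adjusted p = 3.61e-08), *Pgd* 3.38 ± 0.18 (adjusted p = 9.29e-07) and *Tkt* 3.78 ± 0.27 (adjusted p = 5.05e-06). The order of *Me1* was the exception. On the CON diet, its FPKM was 162 ± 31.0 (SD, n = 3) in eWAT and 84.5 ± 5.75 in muscle. On the HSD diet, it was 54.0 ± 22.5 in eWAT and 111 ± 4.65 in muscle, and every muscle library was above every eWAT library. The HSD contrast had a log2 fold change of -1.14 ± 0.38 (limma, adjusted p = 0.0216), but it was no longer called without HS3W, nor without any of the 3 muscle libraries, nor with limma's arrayWeights. It also shares the HSD eWAT values of *Me1* with the diet comparison known when the members were listed, so it is a description.

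The HSD and CON groups were then compared within eWAT, beginning with the oxidative branch. *G6pdx* had 49.9, 51.0 and 47.7 FPKM in HSD libraries against 70.6, 76.1 and 69.1 in CON libraries. *Pgd* had 31.0, 25.0 and 35.5 FPKM against 59.9, 76.5 and 83.1. Both dehydrogenases were lower in every HSD library than in any CON library. *Pgls*, the lactonase between them, had 16.2, 18.1 and 17 FPKM against 17.3, 17.4 and 16.8, and its groups overlapped. The log2 fold change was -0.53 ± 0.09 for *G6pdx* (limma, adjusted p = 0.121), -1.25 ± 0.18 for *Pgd* (adjusted p = 0.114) and -0.01 ± 0.08 for *Pgls* (adjusted p = 0.972).

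Of the enzymes of the non-oxidative branch in eWAT, *Tkt* had 38.2, 33.2 and 49.4 FPKM in HSD libraries against 98.2, 115 and 128 in CON libraries. *Taldo1* had 109, 85.5 and 138 FPKM against 154, 156 and 164. Neither gene overlapped between the diets, although *Taldo1* in HS5W came close to the CON libraries. *Rpia* had 4.21, 4.05 and 3.98 FPKM against 4.40, 4.20 and 4.45, with overlap. The log2 fold change was -1.5 ± 0.18 for *Tkt* (limma, adjusted p = 0.0905), -0.53 ± 0.19 for *Taldo1* (adjusted p = 0.262) and -0.08 ± 0.09 for *Rpia* (adjusted p = 0.611).

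Outside the pathway, *Me1* had 64.8, 28.1 and 69.0 FPKM in eWAT of HSD mice against 127, 174 and 186 in CON mice. The HSD libraries HS2W, HS3W and HS5W had *Me1* at 39.9%, 17.3% and 42.5% of the CON mean, against 33.6%, 29.2% and 43.4% for *Tkt*, so malic enzyme had the lowest log2 fold change of the 8 members through HS3W. *Idh1* had 98.6, 75.3 and 109 FPKM against 122, 123 and 127. The log2 fold change was -1.67 ± 0.38 for *Me1* (limma, adjusted p = 0.153) and -0.41 ± 0.16 for *Idh1* (adjusted p = 0.281).

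In all, 6 of 8 members were lower in every HSD than in every CON eWAT library, which was so for 12.4% of all genes, while 16.2% of all genes were higher in every HSD library. These contrasts were known when the members were listed, so nothing is read from this count. The median log2 fold change of the members was -0.53, against 0.08 over all genes tested. Called genes made up 0% of 13740 genes in eWAT, the members included, although 2298 genes, 6 members among them, had an unadjusted p under 0.05. Limma voom on recovered fragments gave 0 calls too.

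**Figure D2:**
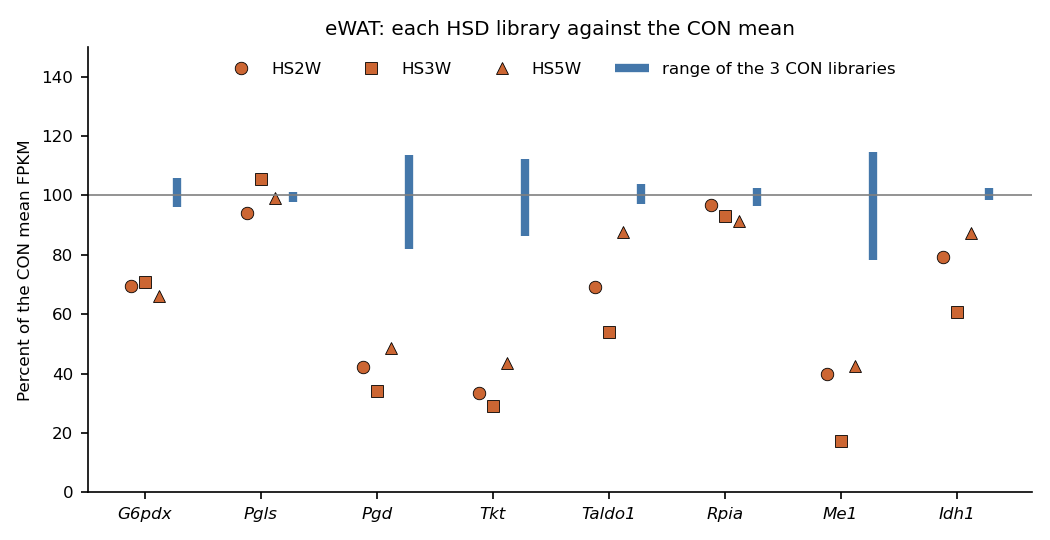
FPKM in each HSD eWAT library as a percentage of the CON mean (orange symbols, vertical axis) for the 8 enzymes, with a blue bar for the range of the 3 CON libraries and a grey line at the CON mean. *Pgd*, *Tkt* and *Me1* lie lowest, *G6pdx*, *Taldo1* and *Idh1* are lower in all 3 libraries, and *Pgls* and *Rpia* lie close to the CON range.

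HS3W, the library with the epididymal markers, gave the lowest FPKM of *Pgd*, *Tkt*, *Taldo1*, *Me1* and *Idh1* in eWAT, and its 10829 FPKM of adipocyte markers compared with 28884 to 34388 in the other eWAT libraries. Without HS3W, *Pgd* (-1.12 ± 0.15), *Tkt* (-1.37 ± 0.15) and *Me1* (-1.25 ± 0.17) were called with limma adjusted p-values of 0.0244, 0.0227 and 0.0243, and 1.21% of all genes were called. Without it *G6pdx* was at -0.56, *Taldo1* at -0.36 and *Idh1* at -0.26. The adipocyte markers of the remaining HSD libraries summed to 32303 FPKM in HS2W and 34388 FPKM in HS5W against 28884 to 29124 FPKM in CON, and *Cfd* carried that difference. Without *Cfd* the sums were 17909 and 18911 FPKM against 18170 to 19771 FPKM. Of the 14 adipocyte markers, 13 had a log2 fold change below 0 over all libraries (median -0.54), and 5 were lower and 5 higher than in every CON library without HS3W (median -0.01). Without CON16W, the library with the blood cell markers, *Pgd* was at -1.39, *Tkt* at -1.60 and *Me1* at -1.83, none of them called. Macrophage markers summed to 606 to 902 FPKM in CON and 269 to 586 FPKM in HSD eWAT, with 11 of 13 at 1 FPKM or more in every library. Of 14 hepatocyte markers, 12 to 14 reached 1 FPKM in CON eWAT and 3 to 6 in HSD eWAT, with sums of 1128 to 1640 and 689 to 2580 FPKM. Although these sums overlapped, 11 of 13 tested markers were lower in every HSD library and 0 higher, with a median of -2.78. All genes had shares of 12.4% and 16.2%. Without HS3W, 12 of 14 were lower and 1 higher (*Cyp2e1*, at 1.10), against 20.5% and 26.2% of all genes. Male germ cell markers summed to 600 FPKM in HS2W and 263 FPKM in HS3W against at most 51.1 FPKM in the other eWAT libraries. The part of these cells in the values of the members was not tested, and in bulk RNA fewer cells of a type and less RNA per cell cannot be told apart.

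FPKM are scaled by length, so the enzymes can be set against each other within a library, but only roughly. The length is that of all annotated exons of a gene, from 2171 bases for *Taldo1* to 7355 bases for *Tkt*. Where the transcripts present are shorter than this, FPKM understates the gene. Shares and ratios between genes are thus approximate. The summed FPKM of the NADPH-forming *G6pdx*, *Pgd*, *Me1* and *Idh1* was 432 ± 45.5 (SD, n = 3) in CON eWAT and 228 ± 43.0 in HSD eWAT. *Me1* made up 37.4% ± 3.4 of that sum in CON and 22.9% ± 6.2 in HSD eWAT, and *Idh1* 29.0% ± 2.8 and 41.3% ± 0.8. *Idh1* was thus the largest of the 4 in each HSD eWAT library and *Me1* in each CON library. The ratio of *Me1* to *Idh1* was 1.04 to 1.46 in CON and 0.374 to 0.657 in HSD eWAT. Within the pathway, the ratio of *Tkt* to *Taldo1* was 0.640 to 0.781 in CON and 0.349 to 0.389 in HSD eWAT, and that of *Pgd* to *G6pdx* was 0.849 to 1.2 and 0.489 to 0.746. These ratios are made of the values that chose the members and carry no test.

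The 3 tissues differed in which of these enzymes had the largest FPKM, with the same limit of length. In muscle, *Me1* took 86.9% ± 1.2 of the summed FPKM in CON and 90.8% ± 0.7 in HSD libraries. In liver, *Idh1* took 70.9% ± 6.8 in CON and 82.1% ± 3.4 in HSD libraries, and *Me1* 23.9% ± 4.7 and 15.2% ± 2.3. *G6pdx* and *Pgd* together were a small part of the sum in both tissues, at mean shares of 1.69% and 3.48% in CON liver and 1.46% and 3.10% in CON muscle. In CON eWAT they took 16.8% and 16.9%. A share of mRNA says nothing of enzyme activity or flux.

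**Figure D3:**
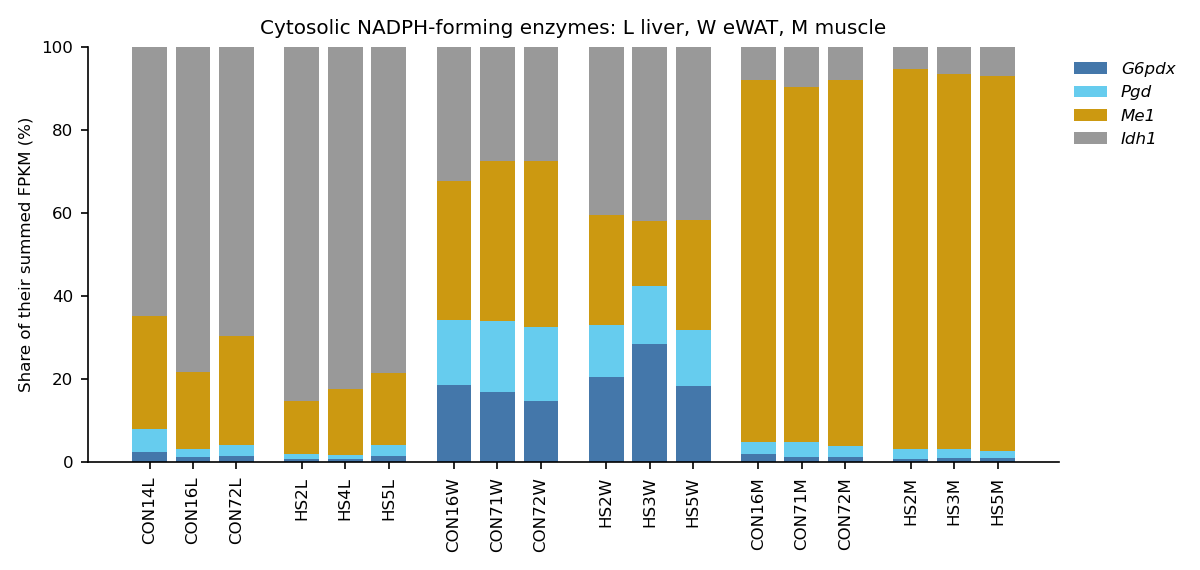
Share of *G6pdx*, *Pgd*, *Me1* and *Idh1* in their summed FPKM (vertical axis, percent) in each of the 18 libraries, 1 stacked bar per library. *Idh1* fills most of the bar in liver and *Me1* in muscle, and in eWAT the *Me1* share is smaller and the *Idh1* share larger in all 3 HSD libraries than in the 3 CON libraries.

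In liver, 2 of 8 members had all HSD libraries below all CON libraries (3.47% of all genes did), and 0 members were higher in every HSD library, against 8.62%. *Pgd* had 1.49, 1.52 and 2.0 FPKM in HSD libraries against 2.89, 2.48 and 3.22 in CON libraries, and *Rpia* had 0.573, 0.863 and 0.677 against 2.32, 1.19 and 1.57. Their log2 fold changes were -0.63 ± 0.21 and -0.84 ± 0.26 (limma, adjusted p = 0.764 for both). *G6pdx* had 0.841, 1.31 and 0.988 FPKM against 1.19, 1.51 and 1.74, with overlap. *Tkt*, *Taldo1* and *Me1* overlapped as well, with log2 fold changes of -0.18, -0.11 and -0.38, and *Pgls* and *Idh1* were at 0.51 and 0.47. The median of the members was -0.27, against 0.13 over all genes. Macrophage markers, 13 genes, summed to 67.2 to 78.0 FPKM in CON and 28.4 to 46.3 FPKM in HSD liver. Hepatocyte markers, 14 genes, summed to 17879 (CON14L) to 85025 FPKM in CON and 41288 to 92659 FPKM in HSD liver. Of these 14 genes, 1 had a log2 fold change below 0, and their median was 0.95. The part of either set in the values of the members was not tested. Called genes made up 0% of 10317 genes, and 592 genes had an unadjusted p under 0.05, among them *Pgd* and *Rpia*.

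The mitochondrial share of the liver libraries moved with several members. *Idh1* had 32.9 FPKM in CON14L and 56.1 FPKM in HS5L, the libraries with the largest mitochondrial share, and 81.9 to 128 FPKM in the other liver libraries. *Taldo1* had 19.4 and 21.7 FPKM in the same libraries and 45.7 to 59.6 elsewhere, and *Pgls* 3.76 and 7.32 FPKM against 9.51 to 15.2. *Rpia*, by contrast, was highest in CON14L. With the mitochondrially encoded genes left out and the libraries rescaled, the log2 fold changes of *Pgls* and *Idh1* became -0.004 and -0.08. The other members moved further below 0, with *Rpia* at -1.45 ± 0.62, *Pgd* at -1.19 ± 0.56, *Me1* at -0.93 ± 0.37, *G6pdx* at -0.87 ± 0.48, *Tkt* at -0.72 ± 0.38 and *Taldo1* at -0.66 ± 0.28. The rescaling multiplies all remaining genes of a library by the same factor. The shift is therefore not particular to the members, and no stronger fall of these enzymes is read from it. After this step 3 of 8 members were lower in every HSD library, against 6.55% of all genes. *Me1* then had 19.3 to 32.2 FPKM in HSD against 36.3 to 62.1 in CON liver, *Taldo1* 55.5 to 64.7 against 87.0 to 106 and *Rpia* 0.77 to 1.73 against 1.89 to 10.4. The groups of *Pgd* overlapped after this step, with 2.0 to 5.10 FPKM against 3.94 to 12.9. None of the members was called, and the part of the mitochondrial share in these values was not tested. Without CON16L, the library with the skeletal muscle markers, *Pgd* was at -0.72 and *Rpia* at -1.01, with limma adjusted p-values of 0.506 for both.

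**Figure D4:**
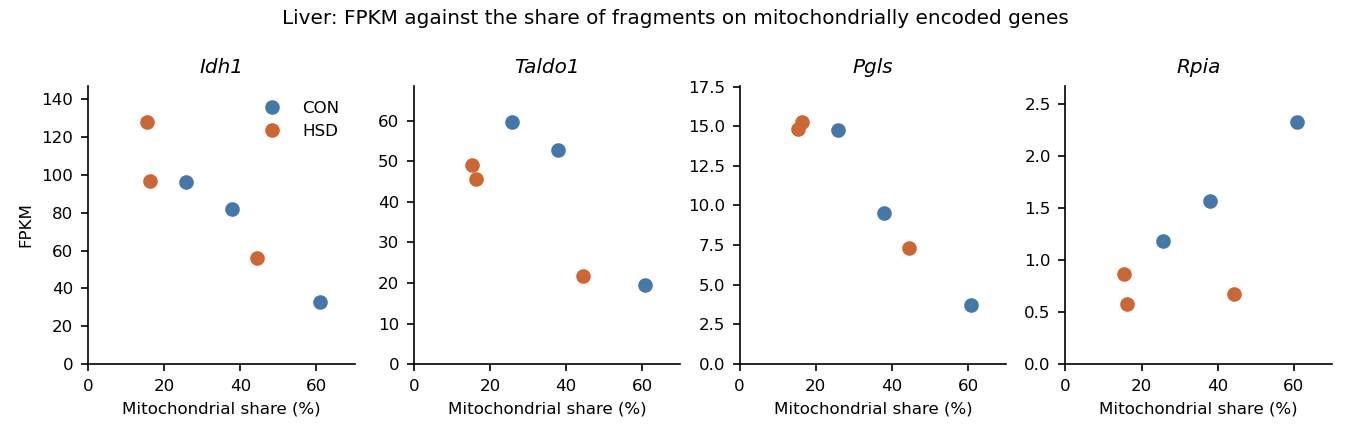
FPKM of *Idh1*, *Taldo1*, *Pgls* and *Rpia* (vertical axes) against the percentage of fragments on mitochondrially encoded genes (horizontal axis) in the 6 liver libraries, CON in blue and HSD in orange. CON14L at 60.8% and HS5L at 44.4% have the lowest *Idh1*, *Taldo1* and *Pgls*, whereas *Rpia* is highest in CON14L.

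In muscle, *Me1* had 107, 110.1 and 116 FPKM in HSD libraries against 86.4, 78.1 and 89.1 in CON libraries. It was the 1 member higher in every HSD library, against 6.72% of all genes, with a log2 fold change of 0.39 ± 0.11 (limma, adjusted p = 0.137). *Pgd*, with 2.67, 2.42 and 2.29 FPKM against 2.95, 3.20 and 2.87, was the 1 member lower in every HSD library, against 15.6% of all genes, at -0.24 ± 0.12 (adjusted p = 0.345). The other 6 members overlapped, with log2 fold changes between -0.15 (*G6pdx*) and -0.01 (*Tkt*). The median of the members was -0.10, against -0.06 over all genes. The macrophage markers summed to 59.2 to 93.8 FPKM in CON and 44.1 to 48.2 FPKM in HSD muscle, again not tested for a part in these values. Called genes made up 0.323% of 10834 genes, and 0 of them were members.

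**Figure D5:**
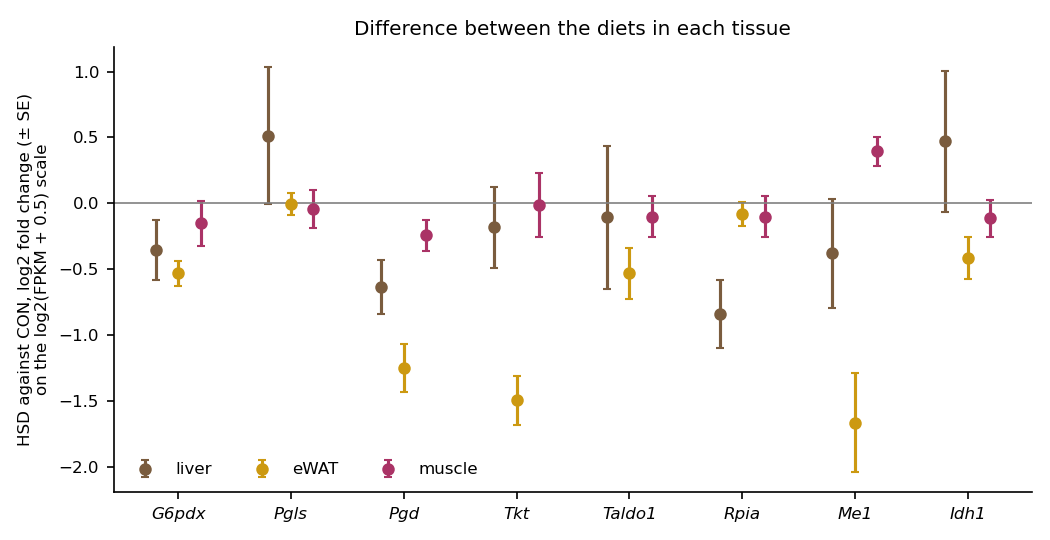
Difference between HSD and CON for each enzyme (vertical axis, log2 fold change on the log2(FPKM + 0.5) scale from limma, bars are the standard error) in liver, eWAT and muscle. In eWAT *Pgd*, *Tkt* and *Me1* lie below -1 and the muscle value of *Me1* lies above 0, while the liver values have the widest bars.

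Whether the diets differed more in one tissue than in another was fitted over all 18 libraries, and 0 of 8 members were called in any pair of tissues. The background was 0.758% of 13067 genes for liver against eWAT, 0% for eWAT against muscle and 0.0612% for liver against muscle. For *Me1*, lower in eWAT and higher in muscle in every HSD library, the difference between eWAT and muscle was -2.06 ± 0.50 on the log2 scale (limma, adjusted p = 0.201). For *Tkt* it was -1.49 ± 0.39 (adjusted p = 0.281) and for *Pgd* -1.01 ± 0.24 (adjusted p = 0.177). Between liver and eWAT, the difference was 1.31 ± 0.39 for *Tkt* (adjusted p = 0.164), 1.29 ± 0.50 for *Me1* (adjusted p = 0.275) and 0.62 ± 0.24 for *Pgd* (adjusted p = 0.266). With mitochondrially encoded genes left out, these differences were 0.789, 0.75 and 0.075. *Rpia* ran the other way, with -0.76 ± 0.25 between liver and eWAT (adjusted p = 0.206) and -0.74 ± 0.25 between liver and muscle (adjusted p = 0.436). Without the mitochondrially encoded genes, *Rpia* was at -1.359 and -1.297. The other members differed between liver and muscle by -0.77 (*Me1*) to 0.58 (*Idh1*). Across all genes, 1045 had an unadjusted p under 0.05 for eWAT against muscle.

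Other enzymes around the pathway were read from lists, none of whose genes was called between the diets in any tissue with all libraries. Without HS3W, *Aldh1l1* (-1.05), *Acly* (-1.92) and *Fasn* (-2.99) were called in eWAT. Relatives of the oxidative branch were *H6pd*, which runs the reactions of *G6pdx* and *Pgls* inside the endoplasmic reticulum, and *G6pd2*, which was too low to test in all 3 tissues. *H6pd* had 96.2 ± 34.4 FPKM (SD, n = 3) in HSD and 97.2 ± 12.8 in CON eWAT, a log2 fold change of -0.08 that became 0.24 without HS3W, with 0.41 in liver and -0.09 in muscle. In CON mice it was higher in eWAT than in muscle by 2.73 on the log2 scale (limma, adjusted p = 2.79e-06).

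Of 9 testable genes of the non-oxidative branch and of ribose 5-phosphate use, 1 was lower and 2 were higher in every HSD eWAT library, against 12.4% and 16.2% of all genes. Without HS3W these counts were 2 and 2, against 20.5% and 26.2%. *Rpe*, the epimerase that works beside *Rpia*, had 17.8 ± 3.02 FPKM in HSD and 29.3 ± 2.82 in CON eWAT (-0.72 ± 0.16), and *Prps1*, which makes the nucleotide precursor PRPP, was at -0.51. At the upper end were *Shpk*, the sedoheptulose kinase, at 0.37 ± 0.10 and *Prps2* at 0.60 ± 0.63. *Prps2* rested on HS3W, with 35.0 FPKM there against 7.76 and 6.93 FPKM in the other HSD libraries, and was at -0.13 without it. The median of the list was 0.08 in eWAT (-0.13 without HS3W), 0.26 in liver and -0.09 in muscle. Of these 9 genes, 8 were called higher in eWAT than in muscle of CON mice.

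Mitochondrial and other NADPH sources had a median of -0.01 in eWAT over 10 testable genes. The lowest was *Aldh1l1*, a folate enzyme, with 13.8 ± 6.12 FPKM in HSD and 35.5 ± 1.81 in CON eWAT (-1.43 ± 0.34). Next came *Me2*, a mitochondrial malic enzyme that mainly uses NAD, with 2.44 ± 0.17 and 4.0 ± 0.15 FPKM (-0.61 ± 0.10). Both were lower in every HSD library. *Mthfd1l*, which itself makes no NADPH, and *Mthfd2*, which mainly uses NAD, had the highest values of this list, at 1.09 ± 0.96 and 0.65 ± 0.71. Both rested on HS3W, where *Mthfd2* was at 17 FPKM against 2.37 and 2.63 FPKM in the other HSD libraries. *Idh2*, the mitochondrial counterpart of *Idh1*, was at -0.05 in eWAT, and the NAD-dependent *Idh3a*, *Idh3g* and *Idh3b* were at -0.66, -0.18 and -0.03. Without HS3W, *Idh2*, *Idh3g* and *Idh3b* were at 0.18, 0.06 and 0.21, *Mthfd1l* at -0.06 and *Mthfd2* at -0.20.

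In the citrate and malate shuttle, which feeds *Me1* with malate and carries citrate to the cytosol, 5 of 9 genes were lower in every HSD eWAT library (12.4% of all genes were) and the median was -0.47. Without HS3W it was 6 of 9 (20.5% of all genes), with a median of -0.39. *Acly*, which splits citrate, was at -1.31 ± 0.58 with overlap through HS3W (134 FPKM, against 35.6 and 39.7 FPKM in the other HSD libraries and 91.9 to 201 FPKM in CON), and the citrate carrier *Slc25a1* at -1.25 ± 0.28, with 72.8, 45.1 and 95.4 FPKM against 154, 157 and 178. *Slc25a11* (0.06, and -0.16 without HS3W) and *Aco1* (0.05) were highest. In liver the shuttle had a median of 0.18, with *Acly* at -0.91, and in muscle -0.25.

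Among 8 enzymes of fatty acid and sterol synthesis, routes that spend NADPH, 3 were lower in every HSD eWAT library, 4 in liver and 3 in muscle, where 12.4%, 3.47% and 15.6% of all genes were. Without HS3W the count in eWAT was 7 of 8, against 20.5% of all genes. Fatty acid synthase (*Fasn*) had 47.2, 46.5 and 85.5 FPKM in HSD eWAT against 324, 596 and 673 in CON eWAT, a log2 fold change of -3.13 ± 0.37 (limma, adjusted p = 0.0884). It was at -1.59 ± 0.50 in liver and -0.92 ± 0.44 in muscle. *Hsd17b12*, a reductase of fatty acid elongation, was at -0.54 ± 0.17 in eWAT, whereas the squalene synthase *Fdft1* (0.26) and the lanosterol synthase *Lss* (0.13), which itself uses no NADPH, were at the upper end of this list. *Lss* was above 0 through HS3W, with 5.80 FPKM there, and was at -0.25 without it, since HS2W (2.40 FPKM) and HS5W (2.35 FPKM) lay below every CON library. In liver, *Dhcr7*, a reductase of cholesterol synthesis, was at -1.42 ± 0.22. A further list of 8 genes held the glutathione and thioredoxin reductases together with *Nqo1*, *Blvrb*, *Cbr1* and *Por*, which spend NADPH on other substrates. This mixed list had medians of 0.06 in eWAT, 0.29 in liver and 0.12 in muscle. *Blvrb* (-0.38) and *Por* (-0.36) were lowest and *Cbr1* (0.51) and *Nqo1* (0.73) highest in eWAT, while glutathione reductase (*Gsr*) was at 0.11. Without HS3W, *Blvrb* was at -0.22, *Por* at -0.01, *Cbr1* at 0.22 and *Nqo1* at 0.33.

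For each member, the genes with the most similar values were found by Pearson's r over the 18 libraries, after the mean of each tissue was subtracted, among 9001 genes. The libraries share their depth, their tissue composition and the diet, so these values are a description. *Pgd* was most like *Acaca* (r = 0.935), which makes malonyl-CoA, *Acss2* (r = 0.931), which makes cytosolic acetyl-CoA, and *Fasn* (r = 0.915). *Tkt* was most like *Orm1* (r = 0.903), *Cisd3* (r = 0.897) and *Slc25a1* (r = 0.886), and *Me1* like *Orm1* (r = 0.907), *Itgb5* (r = 0.871) and *Tkt* (r = 0.862). *G6pdx* was most like the interferon-stimulated genes *Isg15* (r = 0.875) and *Ifit1* (r = 0.779) and *Acss2* (r = 0.772). *Rpia* was most like *Samd9l* (r = 0.860), *Aacs* (r = 0.857) and *Oas2* (r = 0.808). The members that varied with the mitochondrial share in liver had other neighbours. *Taldo1* was most like *Dbi* (r = 0.969), *Psme1* (r = 0.966) and *Ifitm3* (r = 0.961), *Idh1* like *Cd164* (r = 0.960), *Apoe* (r = 0.953) and *Tspo* (r = 0.953), and *Pgls* like *Fam162a* (r = 0.972), *Bcl10* (r = 0.971) and *Ciao1* (r = 0.968). Among the members themselves, r was 0.763 between *Pgd* and *Me1* and 0.761 between *Pgd* and *Tkt*, 0.894 between *Taldo1* and *Idh1*, and -0.563 between *Pgls* and *Rpia*.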

How the data were processed

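RNA-seq covered 18 libraries from 3 tissues. Per the methods of the study, the authors removed adaptors with cutadapt, mapped to mm10 by hisat2 and let cuffdiff turn an Ensembl annotation of unstated release into gene FPKM. The deposited FPKM were used as they are. The submitters' processing notes also name HTSeq and mm9. The study's own figures use 15 of these libraries, without CON16L, HS5L and HS5W, and all 18 were used here. Fragments behind each FPKM were recovered with exon lengths of GENCODE M21: 18343 of 18822 genes above 0 gave whole numbers within 0.02 in all libraries, and another length was found for the other 479. The recovered totals give the depth of each library.

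HSD and CON were compared per tissue, tissues within each diet, and the diet effect between tissues over all libraries, with limma 3.58.1 in R 4.3.3. The scale was log2(FPKM + 0.5), genes whose mean was under 0.5 FPKM were dropped, and eBayes used a trend. P-values were adjusted over all genes tested. To be called, a gene needed an adjusted p below 0.05 and a log2 fold change of 1 or more in either direction. Each library is described as 1 tissue sample, so p-values measure the spread between these samples. Where a mouse code recurs across tissues, the main fits still treated its libraries as independent. With the mouse code as a random block, the same members were called between tissues in each diet, and none for the differences of the diet effect. The fit between the diets within a tissue was run on simulated data with the same spread for all genes. That run checks the code and does not measure which changes the fits can find in these libraries. DESeq2, which the authors used for their comparison, takes counts and was therefore not applied to FPKM.

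The members and lists were chosen with earlier results of these data known. Genes named are the members, the lowest and highest pair of each list in eWAT with the extremes and key members in other tissues, the 3 genes most like each member, and genes a result turns on; *H6pd*, *Idh2*, *Gsr* and the liver values of *Dhcr7* and *Acly* among them were picked with their values known. Some genes of the list of fatty acid and sterol synthesis are not reported here and are in none of its counts. RefSeq windows (GRCm38.p6) were found for all 8 members.

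Since the diets were given to different mice, a pairing could come from replicate numbers alone. Deviations from the group means correlated between libraries of the same number at 0.383, 0.177 and 0.184 in muscle. The values were -0.473, 0.395 and -0.213 in liver and -0.197, 0.061 and 0.414 in eWAT. Libraries of unlike number were not correlated for comparison, so these values do not settle whether libraries were paired. The main fits used no pairing in any tissue, and the replicate block was an alternative only. Alternatives were other pseudocounts, filters and scalings, mitochondrially encoded genes left out, arrayWeights, eBayes without trend, all tissues in 1 fit, the replicate block, the mouse as a random block, the study's libraries alone and each library left out. Voom on recovered fragments, liver without CON14L and HS5L, and the mitochondrial share as a covariate were added after the data were seen. Python 3.11.15 with pandas 2.3.3 and numpy 2.4.6 did the other computations, and matplotlib 3.10.9 drew the plots.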

Additional observations from a re-analysis of the deposited data

Results flagged for a closer look

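*Me1* was lower in all 3 HSD libraries than in all 3 CON libraries of eWAT (log2 fold change -1.67) and higher in all 3 HSD libraries of muscle (0.39), so every library moved in opposite directions in the tissues. The difference of -2.06 on the log2 scale was tested over all 18 libraries and was not called (limma, adjusted p = 0.201). With 3 libraries a group, no single library was tested for standing apart.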

How the results depend on the processing

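No member was called between the diets in eWAT under pseudocounts, filters, scalings, voom or the study's libraries alone, but 3 (*Pgd*, *Tkt*, *Me1*) were with arrayWeights, with all tissues in 1 fit and without HS3W (0 to 3 members over the left-out libraries). In liver 1 member (*Me1*) was called with arrayWeights and 0 without any single library. The replicate block left 0 members called in each tissue and changed no call of a member. For liver against eWAT in CON the count was 4 with median-ratio scaling and 4 with mitochondrially encoded genes left out (6 to 8 over left-out libraries), and for liver against muscle it was 3 to 5 over left-out libraries. Differences of the diet effect gave 4 members for liver against eWAT and 1 for liver against muscle in the study's libraries, and 2 for eWAT against muscle both there and with arrayWeights (0 to 1 over left-out libraries). Why these counts moved was not tested.

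Some log2 fold changes of members turned sign under another setting. *Pgls* and *Idh1* in liver against eWAT in HSD were then called with the turned sign under median-ratio scaling (1.074 and 1.562), where *Taldo1* (0.068) and *Me1* (0.018), called before, turned as well. For that contrast quantile normalization gave *Pgls* 0.429, leaving out mitochondrially encoded genes gave *Pgls* 0.041 and *Idh1* 0.498, and the study's libraries gave *Idh1* 0.367. For liver against muscle in HSD, *G6pdx* was at 0.187, 0.209 and 0.035 with median-ratio scaling, quantile normalization and mitochondrially encoded genes left out, and for eWAT against muscle in HSD *Rpia* was at -0.661 and -0.914 under the first and second of these. The difference of the diet effect of *Rpia* between eWAT and muscle was -0.123 with median-ratio scaling, -0.227 with quantile normalization and -0.039 with arrayWeights. In CON, *Pgls* and *Rpia* in liver against eWAT had been called before. With mitochondrially encoded genes left out, the sign also turned for the diet effect in liver of *Pgls* (-0.004) and *Idh1* (-0.080), for liver against eWAT in CON of *Pgls* (0.026) and *Idh1* (0.150) and for liver against muscle in CON of *Pgd* (0.629). With the mitochondrial share as a covariate, *Pgls* was at -0.202 and *Idh1* at -0.182 in liver. Median-ratio scaling gave *Pgls* 0.036 and *Tkt* 0.059 for the diets in muscle. For liver against eWAT in CON it gave *Pgls* 0.558, *Rpia* 0.218 and *Idh1* 0.697, for liver against muscle *Pgd* 0.503, and for eWAT against muscle *Rpia* -0.556 and *Me1* -0.097. Quantile normalization gave *Pgls* 0.030 and *Tkt* 0.102 for the diets in muscle, *Pgls* 0.086 and *Rpia* 0.248 for liver against eWAT, *Pgd* 0.388 for liver against muscle and *Rpia* -0.638 for eWAT against muscle. With arrayWeights, the diets in muscle gave *Pgls* 0.065, *Tkt* 0.214 and *Rpia* 0.003, and liver against muscle gave *G6pdx* -0.012. In the study's libraries, the diets in liver gave *Tkt* 0.011 and *Taldo1* 0.556, liver against muscle in CON gave *Pgd* 0.020 and *Taldo1* -0.070, and the diet effect of *Tkt* differed between liver and muscle by 0.024.

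Over single left-out libraries, the diet effect in liver ran from 0.000 to 0.922 for *Pgls*, -0.451 to 0.002 for *Tkt*, -0.610 to 0.261 for *Taldo1* and -0.003 to 0.797 for *Idh1*. In eWAT it ran from -0.047 to 0.033 for *Pgls*. In muscle it ran from -0.236 to 0.006 for *G6pdx*, -0.180 to 0.038 for *Pgls*, -0.253 to 0.238 for *Tkt*, -0.218 to 0.064 for *Taldo1* and -0.227 to 0.019 for *Idh1*. Liver against muscle in CON ran from -0.041 to 0.212 for *G6pdx*, -0.140 to 0.020 for *Pgd* and -0.070 to 0.726 for *Taldo1*, and the difference of the diet effect of *Tkt* between liver and muscle from -0.439 to 0.068. In HSD, liver against eWAT ran from -0.335 to 0.256 for *Idh1*, and the difference of the diet effect of *Rpia* between eWAT and muscle from -0.078 to 0.156.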
